A study of Mus musculus with 13 samples.

Results

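This account covers 41 genes of the lysosome, the acidic compartment in which cells break down proteins, sugars and lipids, across 6 leukocyte populations of the mouse spleen. The genes are a fixed list of hydrolases, lipid-handling proteins, membrane proteins, proton-pump subunits and the factor Tfeb, with the cathepsins left out. Each gene was read from the probe set annotated to it alone that had the highest mean signal, and all 41 were found among the 18194 genes with such a probe set. Of these, 40 passed the filter on low signals (at least 50 on every array of at least 1 population) and were tested together with the other genes that passed, 9380 in all. The cystine exporter Ctns did not pass, with population means from 32.4 to 50.8.

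Gene expression was measured on 13 Affymetrix Mouse Genome 430 2.0 arrays, each hybridised with RNA from cells sorted from spleens of wild-type C57BL/6 mice, with no treatment named in the labels. The dendritic cell (DC) samples were plasmacytoid DCs (pDCs), CD8α conventional DCs (cDCs) and CD11b cDCs, with 2 arrays each and a pool of 10 to 15 mice per array. The natural killer (NK) cell arrays (n = 2) came from pools of 6 to 10 mice, and the CD8 T cell arrays (n = 2) from 1 mouse each. Of the 3 B cell arrays, replicate 1 was of splenic B lymphocytes from 3 mice, whereas replicates 2 and 3 were of follicular B cells from 2 mice and from 1 mouse. The labels give an age of 6 to 8 weeks for 1 CD8α cDC array and both CD8 T cell arrays, and of 6 weeks for B cell replicates 2 and 3; they give no age for the other 8 arrays. Arrays of 1 population are labelled as separate samples, and the p-values below measure the spread between them, which may in part be technical.

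Every population carried its own markers: all 7 pDC markers reached a signal of 50 on both pDC arrays, all 6 B cell markers measured did so on the 3 B cell arrays, all 8 T cell markers on both CD8 T cell arrays, and all 6 NK markers measured on both NK arrays. Of the 6 cDC markers measured, 5 did so in either cDC subset. Summed signals over all arrays reached at most 147 for the 4 erythroid markers measured and 235 for 5 platelet markers. Other lists gave signal outside their own population. On the pDC arrays NK markers summed to 2601 and 2818, mostly Klrd1 (mean 2653), and T cell markers to 1403 and 1150, mostly Cd8b1 (1191). On the CD11b cDC arrays NK markers summed to 2471 and 2196, mostly Klrd1 (2237). On the B cell arrays pDC markers summed to 2843 to 6758, mostly Ly6d (mean 3608). The 8 neutrophil markers summed to 312.5 on CD8 T replicate 1 and 120 on replicate 2. Some features of the arrays bear on the values. All 6 DC arrays were scanned in a first period, the NK and B cell arrays in a second and the CD8 T cell arrays in a later one, so DCs against lymphocytes and the scanning period cannot be told apart. The ratio of 3′ to 5′ signal for GAPDH, a measure of RNA or probe length, was 23.9 and 11.2 on the NK arrays and 3.46 to 6.30 on the others. Transcripts of Xist and of the Y chromosome contradicted the labelled sex on 3 arrays (B cell replicate 2 and both CD8 T cell arrays). Xist read 1539 to 4503 on the 6 DC arrays and 4272 on B cell replicate 2. On every other lymphocyte array it read at most 1.055. Sex by these transcripts thus ran largely with DCs against lymphocytes, and its part in the differences was not tested. Of the lysosomal genes, 3 (Ids, Lamp2 and Atp6ap1) lie on the X chromosome.

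Lysosomal enzymes are made in the endoplasmic reticulum, tagged with mannose 6-phosphate and carried by receptors to an organelle kept acidic by a vacuolar proton pump. Their substrates are taken up by endocytosis or phagocytosis or come from the cell's own organelles, and inherited loss of single enzymes gives the lysosomal storage diseases. In DCs the lysosome and late endosome are also where antigen is degraded for MHC class II molecules and where nucleic acids meet endosomal Toll-like receptors. Many genes of the compartment carry in their promoters a site with the letters CACGTG, bound by Tfeb and its relatives of the MiT/TFE family.

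That site was looked for, on both strands, in RefSeq promoters running from 250 bases before the start site to 50 bases after it (build GRCm38.p6). Promoters were found for 37 of the 41 genes. Of those 37, 11 genes (29.7%) held CACGTG: Gaa, Glb1, Arsa, Sgsh, Naglu, Plbd1, Lamp1, Mcoln1, Cln3, Atp6v0d1 and Atp6v1a. Among all 27025 genes with a promoter, 8.09% did. The same 11 genes held the longer TCACGTG, against 4.29% of all genes, and 4 of them held the palindrome TCACGTGA, against 1.12%. The 5 stretches below are the promoter parts around the site in Lamp1, which had the most copies, and in the 4 genes with the palindrome. Cln3 also had another RefSeq promoter, which held no CACGTG. The Cln3 stretch shown lies within the span of the gene (126571207 to 126585817). They are written 5′ to 3′ on the gene's own strand, with CACGTG in capitals.

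Lamp1, chr8:13159080-13159171, plus strand: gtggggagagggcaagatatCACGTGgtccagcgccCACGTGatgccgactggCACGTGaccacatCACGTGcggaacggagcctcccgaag
Mcoln1, chr8:3500428-3500499, plus strand: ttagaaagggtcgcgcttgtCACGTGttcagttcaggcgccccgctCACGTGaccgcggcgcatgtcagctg
Cln3, chr7:126583332-126583405, minus strand: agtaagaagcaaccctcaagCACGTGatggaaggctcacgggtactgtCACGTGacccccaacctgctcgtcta
Atp6v0d1, chr8:105566042-105566087, minus strand: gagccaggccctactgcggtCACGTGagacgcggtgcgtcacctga
Atp6v1a, chr16:44139365-44139410, minus strand: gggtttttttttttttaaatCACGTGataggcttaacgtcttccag

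The 4 copies in Lamp1 began between 61 and 15 bases upstream of the start site, and the 2 in Mcoln1 began 71 and 45 bases upstream. A match of letters is a description of the sequence and not a measured binding site. Of the 11 genes with CACGTG, all tested, 7 were higher in DCs than in lymphocytes and none was lower, where 31.3% of all genes were higher and 32.3% lower, with a median log2 difference of 0.38. Of the 25 tested genes whose promoters lacked it, 16 were higher and 4 lower, with a median of 0.72. No difference between these groups was tested. GGAAGTG, a form of the site of PU.1 and other Ets factors, was present in 18.9% of the 37 genes (Acp2, Pld4, Lipa, Plbd1, Laptm5, Atp6v1a and Tfeb) and in 12.45% of all genes.

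Signals below are MAS5 values, scaled by the authors to a trimmed mean of 100 on every array. Differences are on the log2 scale, after signals under 20 were set to 20, and are given ± SE from limma fitted over all 9380 genes. A gene is called where limma's Benjamini-Hochberg adjusted p over those genes is below 0.05. Across the 6 populations 36 of the 40 genes differed by the F test, as did 82.8% of all genes. The 4 that did not were the β-galactosidase Glb1, the sialidase Neu1, the arylsulfatase Arsa and the phospholipase B-like Plbd2. The population with the highest mean log2 signal was a DC population for 34 of the 40 genes (85.0%), against 45.1% of all genes. It was the pDC for 18 genes, the CD8α cDC for 12, the CD11b cDC for 4, the NK cell for 4 and the B cell (Neu1) and CD8 T cell (Smpd1) for 1 each. The lowest mean was in CD8 T cells for 18 genes, whereas CD8 T cells were lowest for 18.9% of all genes.

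**Figure D1:**
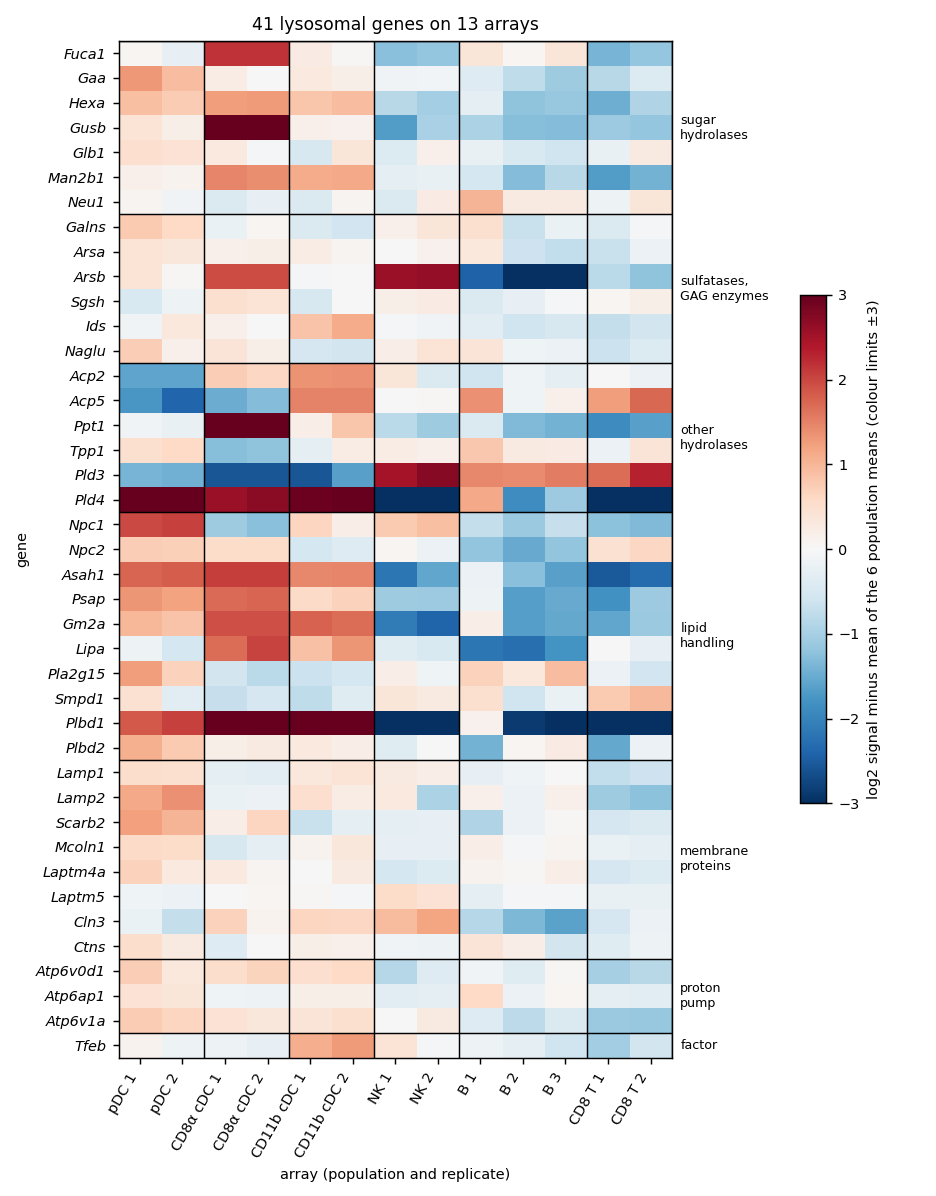
Each row is 1 of the 41 lysosomal genes and each column 1 array. Colour gives the log2 signal minus the mean of the 6 population means of that gene, with signals under 20 set to 20 and colours cut at ±3, and black lines part the role groups and populations. Most genes are red in at least 1 of the 3 DC populations, and Pld3, Arsb and Acp5 run otherwise.

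DCs were compared with the 3 lymphocyte populations first. Lysosomal genes stood higher in DCs: 26 of 40 (65.0%) were called higher, where 31.3% of all genes were, and 4 (10.0%) were called lower, where 32.3% of all genes were. Their median log2 difference was 0.68, beside -0.02 for all genes tested. The summed signal of 15 macrophage and monocyte markers was also higher on the DC arrays (1104 to 8079) than on the lymphocyte arrays (160 to 448), and its part in these differences was not tested. In bulk RNA a smaller share of expressing cells and less RNA per cell cannot be told apart. On 12 of the 26 genes every DC array was above every lymphocyte array, which held, with the call, for 5.78% of all genes. By role, 5 of 7 sugar hydrolases, 3 of 6 sulfatases and glycosaminoglycan enzymes, 2 of 6 other hydrolases, 8 of 10 lipid-handling genes, 5 of 7 membrane proteins, 2 of 3 proton-pump subunits and Tfeb were higher. The lower genes were 3 of the other hydrolases (Acp5, Tpp1 and Pld3) and 1 lipid-handling gene (Smpd1).

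Among the sugar hydrolases, Hexa (the α chain of β-hexosaminidase) read 2213 and 2011 in pDCs, 2841 and 2878 in CD8α cDCs and 2116 and 2255 in CD11b cDCs. In lymphocytes it read 669 and 582 in NK cells, 961, 514 and 537 in B cells and 429 and 637 in CD8 T cells. The groups did not overlap, and the log2 difference was 1.99 ± 0.16 (adjusted p = 1.62e-06). The lysosomal α-mannosidase Man2b1 was 3.45-fold higher (1.79 ± 0.13), the fucosidase Fuca1 2.79-fold (1.48 ± 0.10) and the glycogen-degrading Gaa 1.96-fold (0.97 ± 0.13). The Fuca1 arrays overlapped, since B cells (1060 ± 123, mean ± SD, n = 3) lay near pDCs (831 ± 115, n = 2). Gusb (β-glucuronidase), the gene of this group with the largest difference, was 5.33-fold higher (2.41 ± 0.13, adjusted p = 4.97e-08), and no lymphocyte array exceeded 264. Glb1 (0.35 ± 0.17) and Neu1 (-0.35 ± 0.18) were not called.

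Of the enzymes of sulfated glycans 3 were higher. Ids, which removes sulfate from iduronate, was 1.72-fold higher in DCs and Arsa, which acts on sulfatide, 1.38-fold (adjusted p = 0.0358). Arsb, the sulfatase of dermatan and chondroitin sulfate, was also called higher (1.43 ± 0.30), but its highest arrays were those of NK cells. Galns, Sgsh and Naglu, which act on keratan and heparan sulfates, differed by at most 0.13 and were not called.

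Lipid-handling genes held 4 of the 8 largest differences. Asah1 (acid ceramidase) read 2769 and 2924 in pDCs, 3513 and 3492 in CD8α cDCs and 2250 and 2306 in CD11b cDCs. In NK cells it read 186 and 282, in B cells 731, 349 and 268 and in CD8 T cells 144 and 169. The lowest DC array, 2250, thus lay above the highest lymphocyte array, 731, and the difference was 11.6-fold (3.53 ± 0.21, adjusted p = 1.32e-07).

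Psap, the precursor of the saposins that present sphingolipids to their hydrolases, lay between 4593 and 10310 on the DC arrays and between 869 and 2741 on the lymphocyte arrays. Its difference was 2.42 ± 0.23 (5.37-fold, adjusted p = 5.68e-06). Gm2a, the activator that presents gangliosides to β-hexosaminidase, lay between 2682 and 5742 in DCs and between 282 and 1726 in lymphocytes. The difference was 3.06 ± 0.28 (8.32-fold, adjusted p = 3.36e-06). For these genes the highest lymphocyte array was B cell replicate 1, described further below.

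Plbd1, a phospholipase B-like protein, had the largest difference of the set. It read 1740 and 2021 in pDCs, 9819 and 11080 in CD8α cDCs and 6715 and 7707 in CD11b cDCs. The B cell arrays read 527, 66 and 56.2, and the 4 NK and CD8 T cell arrays lay between 19.8 and 35.5. The difference, 6.84 ± 0.46 (adjusted p = 3.25e-07), corresponds to 115-fold between the means of log2 signals. Its relative Plbd2 moved less (0.93 ± 0.29, adjusted p = 0.0175), with overlapping arrays.

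The cholesterol exporters Npc1 and Npc2 were 1.8-fold and 1.46-fold higher in DCs and Lipa (lysosomal acid lipase) 3.35-fold, all with overlapping arrays. Pla2g15, a lysosomal phospholipase, was not called (-0.20 ± 0.15). Smpd1 (acid sphingomyelinase) was the lipid enzyme that ran the other way, 1.65-fold higher in lymphocytes (-0.72 ± 0.19, adjusted p = 0.00675), with its highest signals in CD8 T cells (207 and 234).

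Pld3 and Pld4, related exonucleases of endolysosomes that degrade single-stranded nucleic acids, were opposed. Pld4 read 6002 and 5273 in pDCs, 2865 and 3073 in CD8α cDCs and 3639 and 4433 in CD11b cDCs. It read 1047, 129.9 and 224 in B cells, 22.6 and 8.33 in NK cells and 32.7 and 14.6 in CD8 T cells. The difference of 6.20 ± 0.40 (adjusted p = 2.33e-07) corresponds to 73.4-fold on the scale with signals under 20 set to 20, and its size depends on that floor.

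Pld3 read 45.1 and 43.8 in pDCs, 5.54 and 2.8 in CD8α cDCs and 10.5 and 38.1 in CD11b cDCs. In lymphocytes it read 667 and 781 in NK cells, 323, 314 and 340.3 in B cells and 378 and 589.5 in CD8 T cells. The lowest lymphocyte array, 314, lay above the highest DC array, 45.1, both CD8α cDC arrays and 1 CD11b cDC array being under 20. With signals under 20 set to 20, Pld3 was 16.5-fold higher in lymphocytes (-4.05 ± 0.16, adjusted p = 4.94e-09), and it was the only gene of the set lower in DCs with no overlap of arrays, which held for 5.6% of all genes.

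Among the other hydrolases, Ppt1 (palmitoyl-protein thioesterase) was 5.67-fold higher in DCs (2.50 ± 0.18, adjusted p = 5.19e-07). Acp5, the tartrate-resistant acid phosphatase, was 2.49-fold higher in lymphocytes (-1.32 ± 0.23, adjusted p = 0.000516) and the peptidase Tpp1 1.41-fold (-0.49 ± 0.14, adjusted p = 0.0112). Both had overlapping arrays, with CD11b cDCs (Acp5) or pDCs and CD11b cDCs (Tpp1) at lymphocyte levels. The acid phosphatase Acp2 was not called (0.30 ± 0.14).

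**Figure D2:**
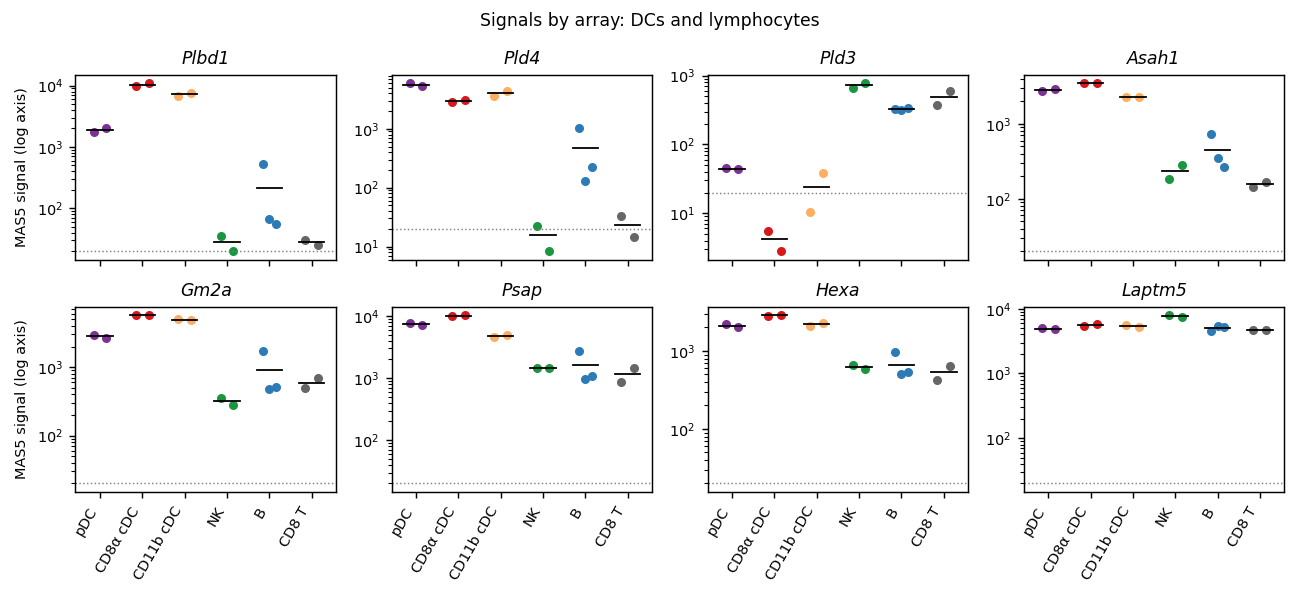
Points are MAS5 signals of 8 genes on each array (log axis), grouped by population, black lines are population means, and the dotted line marks 20. Plbd1, Pld4, Asah1, Gm2a, Psap and Hexa are higher on every DC array than on every lymphocyte array, Pld3 is lower on every DC array, and Laptm5 is highest in NK cells.

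Of the membrane proteins 5 were higher, each with overlapping arrays. Lamp2, a major glycoprotein of the lysosomal membrane, was 1.94-fold higher in DCs, and Lamp1, its abundant relative, 1.3-fold. Scarb2, the membrane receptor that carries glucocerebrosidase to the lysosome, was 1.64-fold higher. Laptm4a was 1.46-fold and the cation channel Mcoln1 1.2-fold higher (adjusted p = 0.0245). Only for Laptm4a was every DC mean above every lymphocyte mean. In CD8α cDCs Mcoln1 had the lowest mean of all populations (167), and Lamp1 (1260) lay below NK (1833) and B cells (1425). Lamp2 in CD8α cDCs (984) lay below B cells (1161), and Scarb2 in CD11b cDCs (422) below NK (486) and B cells (474). Laptm5 (-0.09 ± 0.09) and Cln3 (0.37 ± 0.16), the protein lost in juvenile Batten disease, were not called.

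Of the proton-pump subunits, Atp6v0d1 was 2.17-fold higher in DCs (1.12 ± 0.12) and the catalytic Atp6v1a 2.03-fold (1.02 ± 0.10), both with no overlap. The accessory subunit Atp6ap1 was not called (0.29 ± 0.12). Tfeb, which drives transcription of lysosomal genes, was 1.56-fold higher (0.64 ± 0.13, adjusted p = 0.00137), with overlapping arrays.

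The counts in lists of further lysosomal genes stand against the same 31.3% of all genes higher and 32.3% lower. Of 13 other proton-pump subunits tested, 10 (76.9%) were higher in DCs and none lower, with Tcirg1 (1.60), Atp6v0b (1.29) and Atp6ap2 (1.12) foremost. Of 13 other hydrolases, 7 (53.8%) were higher, led by the acid amidase Naaa (3.43), Scpep1 (2.76) and Fuca2 (2.33), and 2 were lower (Hgsnat, -1.04, and Smpdl3a, -0.75). For Naaa and Fuca2 every DC mean was above every lymphocyte mean. Scpep1 in B cells (602) lay between CD8α (556) and CD11b cDCs (632). Hgsnat and Smpdl3a in B cells (110 and 302) also lay within the range of DC means (69.6 to 113 and 137 to 589). Other membrane proteins went both ways, with 9 of 24 (37.5%) higher, near the share of all genes, and 11 (45.8%) lower. Cd68, a lysosomal glycoprotein of phagocytes, was higher by 5.90, the transporter Slc15a3 by 2.69 and the metal transporter Slc11a1 by 2.67. Mcoln2 (-1.83), Sidt2 (-1.50) and Mcoln3 (-1.30) were lower. For Cd68, Sidt2 and Mcoln3 every DC mean lay on the same side of every lymphocyte mean. Slc15a3 in CD8α cDCs (46.6) lay below B cells (165). Slc11a1 in pDCs (29.2) was near the lymphocytes (at most 26.0), against 1129 in CD8α cDCs. Mcoln2 in pDCs (66.1) lay above CD8 T cells (60.8). Means of Mcoln3 in all DCs and of Mcoln2 in both cDC subsets were under 20, so these sizes depend on that floor.

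Of 14 genes of enzyme delivery, 7 (50%) were higher and 4 (28.6%) lower in DCs, the lower share being near that of all genes (32.3%), and the mannose 6-phosphate receptors were among both. The sorting receptor Sort1 (3.48), the sulfatase-activating Sumf1 (2.33) and the cation-dependent receptor M6pr (1.05) were higher. The cation-independent receptor Igf2r (-2.48), Gnptg (-1.52) and Gga2 (-0.44) were lower. Of these, only Gnptg had every DC mean below every lymphocyte mean. Igf2r had means of 3.45 in pDCs and 4.58 in CD11b cDCs, so its size depends on the floor of 20, and CD8α cDCs (134) lay above B cells (76.3). Gga2 was highest in B cells (1869), and every DC mean (87.5 to 242) lay above NK cells (33.4). Of 12 genes of the MiT/TFE factors and their mTORC1 anchors, 6 (50%, against 31.3% of all genes) were higher, with Mitf (1.43), Tfe3 (0.99) and Rragc (0.81) foremost, and Flcn (-0.92) was lower.

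pDCs were next compared with the mean of the cDC subsets. Of the 40 genes, 11 (27.5%) were higher in pDCs and 9 (22.5%) lower, against 17.7% and 19.1% of all genes. The membrane proteins leaned towards pDCs, with 4 of 7 higher (Lamp1, Lamp2, Scarb2 and Mcoln1) and Cln3 lower. Of the sugar hydrolases Gaa was higher and 3 (Fuca1, Gusb and Man2b1) were lower, and no proton-pump subunit was called.

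Npc1, which exports cholesterol across the lysosomal membrane, read 690.5 and 725 in pDCs, 83.6 and 73.5 in CD8α cDCs and 273 and 202 in CD11b cDCs. In NK cells it read 302 and 328, in B cells 107, 81.3 and 109 and in CD8 T cells 74.3 and 70.1. Its level in pDCs was above each of the other 5 populations in pairwise tests, the nearest being NK cells (log2 difference 1.17, adjusted p = 0.000774). Against cDCs the difference was 2.38 ± 0.17 (5.21-fold, adjusted p = 1.4e-06). Its soluble partner Npc2 was 1.61-fold higher in pDCs (0.68 ± 0.15).

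Gaa was the other gene with its highest level in pDCs by every pairwise test, a pattern that 4.65% of all genes showed. It read 451 and 351 in pDCs and at most 225 on any other array, a difference from cDCs of 0.94 ± 0.21 (adjusted p = 0.00454). Pla2g15 read 196 and 133 in pDCs against 55.9 and 47.2 in CD8α cDCs and 53 and 57.4 in CD11b cDCs, a difference of 1.60 ± 0.22 (3.03-fold, adjusted p = 0.000209). The B cell arrays (133, 102 and 156) overlapped those of pDCs for this enzyme. Lamp2 (2.24-fold) and Scarb2 (2.22-fold) were highest in pDCs, and for Scarb2 the pairwise test of pDCs against CD8α cDCs made no call (adjusted p = 0.083), nor for Lamp2 that against CD11b cDCs (0.88, adjusted p = 0.0646). Tpp1, Galns, Mcoln1 and Lamp1 were higher in pDCs by 0.47 to 1.18 on the log2 scale. Pld3 was also called higher (0.92), but it was dim in all DCs. It read 45.1 and 43.8 in pDCs, 5.54 and 2.8 in CD8α cDCs and 10.5 and 38.1 in CD11b cDCs. The size of its difference depends on the floor of 20.

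Acp2 had its lowest level in pDCs, where it read 18.8 and 18.3, under 20 on both arrays. It read 100.2 and 92.1 in CD8α cDCs, 152 and 156 in CD11b cDCs and between 39.9 and 77.7 on the lymphocyte arrays. pDCs were below each of the other 5 populations, as they were for 1.73% of all genes. With signals under 20 set to 20, the level in cDCs was 6.08-fold that in pDCs (-2.60 ± 0.21, adjusted p = 3.49e-06).

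Acp5, the other acid phosphatase, was 4.31-fold lower in pDCs than in cDCs (-2.11 ± 0.36, adjusted p = 0.000756), a mean over cDC subsets that themselves differed. Lipa read 409 and 314 in pDCs against 1443 and 1831 and 838 and 1140 in the CD8α and CD11b cDCs (-1.82 ± 0.20, adjusted p = 3.83e-05). Ppt1 was 4.37-fold lower in pDCs (-2.13 ± 0.28, adjusted p = 0.000116), but the pairwise test of pDCs (596 ± 28.4) against CD11b cDCs (972 ± 297) made no call (adjusted p = 0.146).

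Plbd1 was 4.62-fold lower in pDCs (-2.21 ± 0.71, adjusted p = 0.0317). The call was lost on leaving out any 1 of 10 of the 13 arrays, with adjusted p up to 0.164, although the difference stayed between -2.32 and -2.10. Pld4, Asah1, Psap and Hexa, which set DCs apart from lymphocytes, were not called between pDCs and cDCs, with differences of 0.70 ± 0.62, 0.01 ± 0.33, 0.08 ± 0.36 and -0.24 ± 0.25.

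Among the other lysosomal membrane proteins, 12 of 24 (50%) were higher in pDCs and 3 (12.5%) lower, against 17.7% and 19.1% of all genes. Slc15a3 (2.45), the endolysosomal ATPase Atp13a2 (2.37) and Cd164 (2.35) were the foremost of those higher, and Slc11a1 (-3.75) of those lower. Of the other hydrolases Scpep1 was higher (1.56) and Naaa lower (-3.32).

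**Figure D3:**
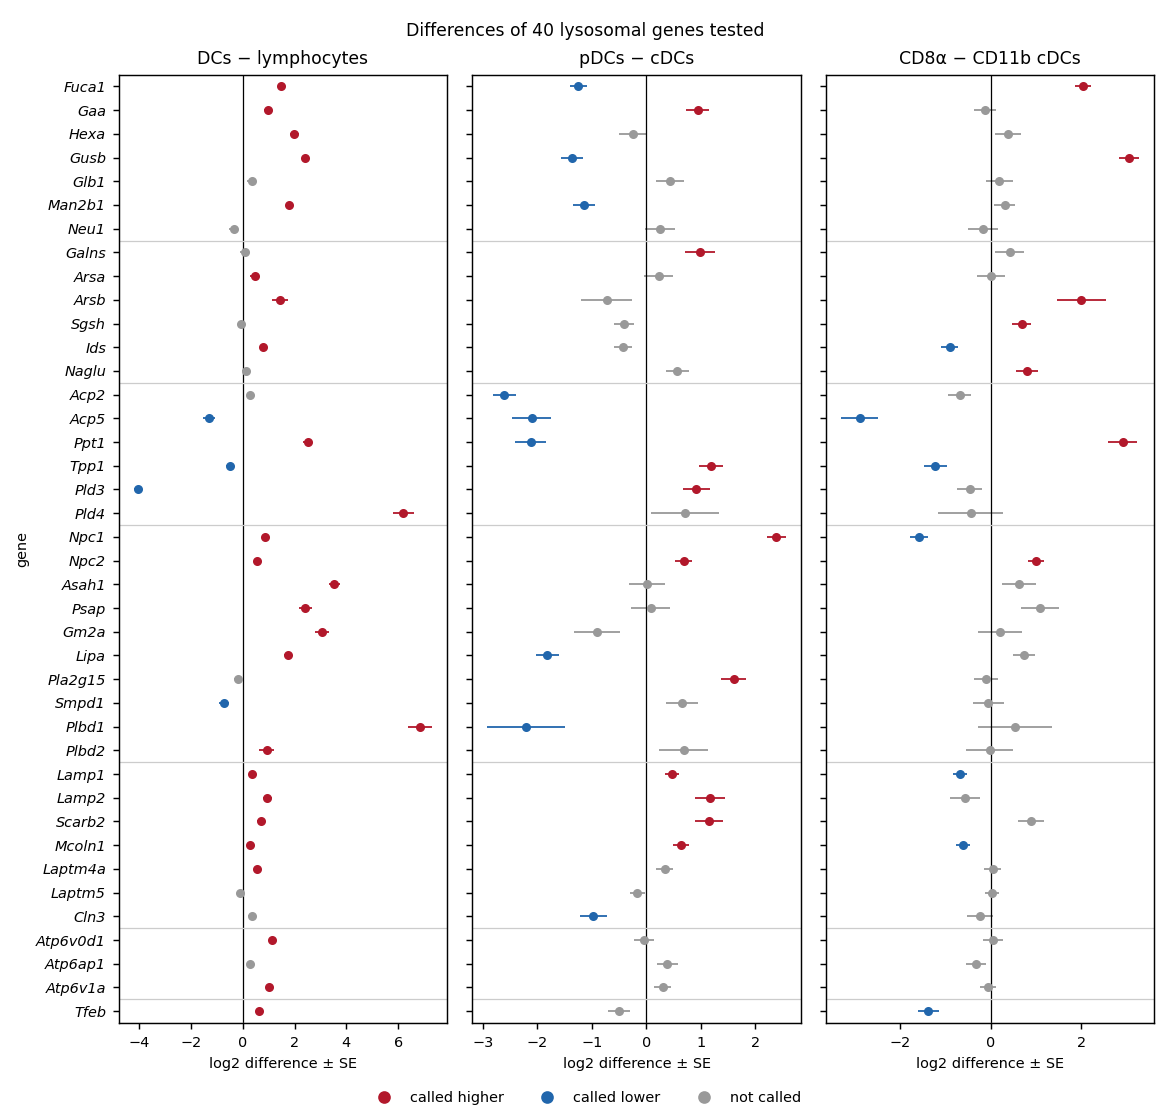
Points are log2 differences ± SE of the 40 genes tested, in 3 comparisons, with grey lines between role groups. Red points are called higher in the first group named, blue points lower and grey points neither, and the left panel has 26 red and 4 blue points, the middle panel 11 and 9, and the right panel 7 and 7.

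CD8α cDCs and CD11b cDCs were then compared, both from pools of like size scanned in the same period. Of the 40 genes, 7 (17.5%) were higher in CD8α cDCs and 7 (17.5%) higher in CD11b cDCs, against 8.96% and 10.6% of all genes. On each of the 14 genes the arrays of the subsets did not overlap, as was so for every gene called in this comparison. Soluble enzymes made up most of the genes higher in CD8α cDCs: Gusb, Fuca1, Arsb, Sgsh, Naglu and Ppt1, with the lipid-binding Npc2. Those higher in CD11b cDCs were Ids, Acp5, Tpp1, Npc1, Lamp1, Mcoln1 and Tfeb.

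Gusb, Ppt1 and Fuca1 were higher in CD8α cDCs than in each of the other 5 populations, as were 4.09% of all genes. Gusb read 4519 and 4690 in CD8α cDCs, 559 and 549.8 in CD11b cDCs and 677 and 572 in pDCs. The lymphocytes read 159.5 and 258 (NK), 264, 209 and 204 (B) and 239 and 225 (CD8 T). CD8α cDCs were 8.3-fold above CD11b cDCs (3.05 ± 0.23, adjusted p = 3.55e-06), while CD11b cDCs and pDCs were not told apart (adjusted p = 0.65).

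Ppt1 read 7268 and 7007 in CD8α cDCs, 762 and 1182 in CD11b cDCs and 616 and 576 in pDCs. Lymphocytes read 379 and 322 (NK), 499, 265 and 249.9 (B) and 180.1 and 216 (CD8 T). The highest array outside CD8α cDCs read 1182, and the difference from CD11b cDCs was 7.52-fold (2.91 ± 0.32, adjusted p = 6.39e-05).

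Fuca1 read 3995 and 3974 in CD8α cDCs, 1049 and 904 in CD11b cDCs and 912 and 750.1 in pDCs. The subsets of cDCs differed 4.09-fold (2.03 ± 0.18, adjusted p = 1.42e-05). B cells (1134, 918 and 1129) were not told apart from CD11b cDCs or pDCs, with adjusted p = 0.621 and 0.115, and lay above NK (368 and 398) and CD8 T cells (336 and 397).

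Tpp1 had the reverse pattern, with its lowest level in CD8α cDCs. It read 228 and 240.3 there, 462 and 645 in CD11b cDCs, 783 and 838 in pDCs and from 490 to 983 on the lymphocyte arrays. CD8α cDCs were below each of the other 5 populations, as for 2.12% of all genes. Against CD11b cDCs the difference was -1.22 ± 0.25 (adjusted p = 0.00601), and without CD11b cDC replicate 2 it was -0.98 and no longer called (adjusted p = 0.0686). Ppt1 and Tpp1, whose loss causes the infantile and late infantile forms of neuronal ceroid lipofuscinosis, stood at opposite ends in this subset.

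Acp5 read 1278 and 1288 in CD11b cDCs, 163 and 185 in CD8α cDCs and 135 and 88.5 in pDCs. CD11b cDCs were 7.4-fold above CD8α cDCs (-2.89 ± 0.41, adjusted p = 0.000453) and were not told apart from CD8 T cells (1084 and 1498, log2 difference 0.01). NK cells read 463 and 471 and B cells 1181, 419 and 506.

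Npc1 was 3-fold lower in CD8α than in CD11b cDCs (-1.58 ± 0.20, adjusted p = 0.000206), and in CD8α cDCs it was not told apart from B or CD8 T cells (adjusted p = 0.167 and 0.656). Npc2 went the other way, 2-fold higher in CD8α cDCs (1.00 ± 0.17, adjusted p = 0.0019).

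Tfeb and Ids were highest in CD11b cDCs by every pairwise test, as were 2.87% of all genes. Tfeb read 196 and 223 in CD11b cDCs, 83.8 and 78 in CD8α cDCs, 100.4 and 83.2 in pDCs and at most 123 in lymphocytes. It was 2.59-fold higher in CD11b than in CD8α cDCs (-1.37 ± 0.23, adjusted p = 0.00148). Ids read 1318 and 1591 in CD11b cDCs and at most 912 elsewhere, a difference from CD8α cDCs of -0.91 ± 0.19 (adjusted p = 0.0063). Lamp1 and Mcoln1 were higher in CD11b cDCs by 0.67 and 0.61.

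Arsb read 1980 and 1999 in CD8α cDCs and 492 and 506 in CD11b cDCs (2.00 ± 0.54, adjusted p = 0.0251). The call was lost on leaving out any DC array other than those of pDCs, or either NK array, with the difference between 1.98 and 2.02. Sgsh and Naglu were higher in CD8α cDCs by 0.69 and 0.81 (adjusted p = 0.0386 and 0.0413). The count of called genes fell to 9 without CD8α cDC replicate 2 and to 8 without CD11b cDC replicate 2.

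Macrophage and monocyte markers moved with this comparison. Their summed signal was 6817 and 8079 on the CD11b cDC arrays, with 9 of 15 at 50 or more on both arrays, against 1800 and 1856 on the CD8α cDC arrays and 1104 and 1131 on the pDC arrays. Adgre1, a surface antigen of macrophages, read 1300 and 1505 in CD11b cDCs against 42.6 and 51.5 in CD8α cDCs, and Csf1r 3187 and 3473 against 247 and 349. Other markers of the list ran the other way, with means of 170 in CD8α and 80.1 in CD11b cDCs for Vcam1 and of 112 and 19.3 for Hmox1. Marco, Mertk and Fcgr1 had means under 20 in every DC population. The part of these cells or transcripts in the CD11b cDC values was not tested.

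**Figure D4:**
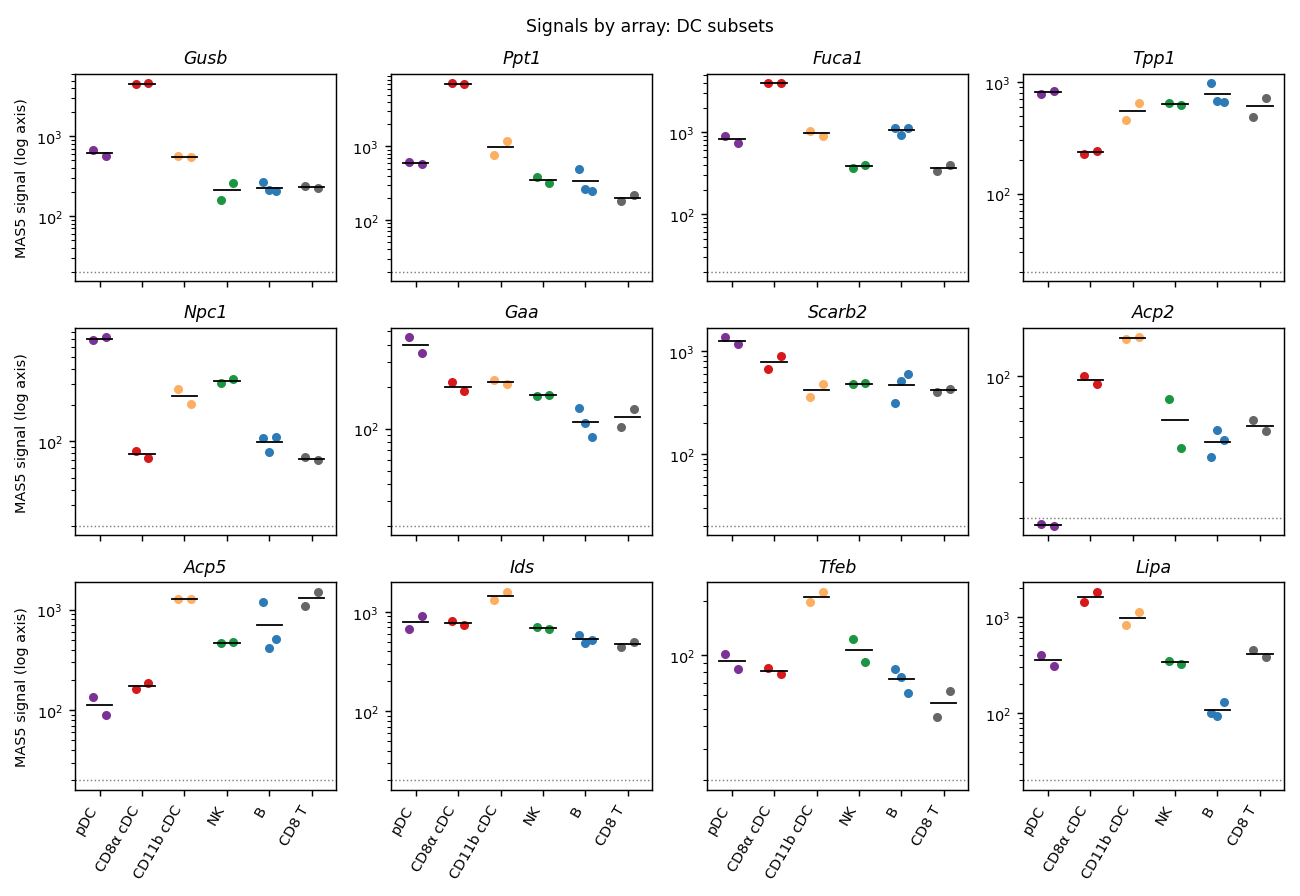
Points are MAS5 signals of 12 genes on each array (log axis), grouped by population, black lines are population means, and the dotted line marks 20. Gusb, Ppt1 and Fuca1 are highest and Tpp1 lowest in CD8α cDCs, Npc1, Gaa and Scarb2 are highest in pDCs and Acp2 lowest there, Ids and Tfeb are highest in CD11b cDCs, and Lipa is lowest in B cells.

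Of the other lysosomal membrane proteins, 3 of 24 (12.5%) were higher in CD8α and 6 (25%) in CD11b cDCs, against 8.96% and 10.6% of all genes. Of 13 other hydrolases 2 and 1 were higher in these subsets, and of 14 genes of enzyme delivery 2 and 1. CD8α cDCs were higher in Naaa (4.04), the galactosylceramidase Galc (3.42), Laptm4b (4.38), Slc11a1 (3.10) and Igf2r (2.74). The mean of Igf2r in CD11b cDCs was 4.58, so the size of its difference depends on the floor of 20. CD11b cDCs were higher in the endolysosomal transporters Slc15a3 (-3.32) and Slc15a4 (-2.19) and in Cd164 (-1.09). Of 12 MiT/TFE and mTORC1-anchor genes none was called here.

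Among the lymphocytes, B cells were set against the mean of NK and CD8 T cells. Of the 40 genes, 8 (20%) were higher in B cells and 6 (15.0%) lower, against 17.7% and 20.1% of all genes, so the shares were near those of all genes. B cells were below each of the other 5 populations in Arsb, Npc2, Lipa and Cln3, a pattern shown by 2.12% of all genes.

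Arsb read 95.3, 19.6 and 28.8 in B cells, 3108 and 3185 in NK cells and 290.5 and 224 in CD8 T cells. NK cells were above B cells in the pairwise test (log2 difference 6.37, adjusted p = 2.17e-06), and the difference of B cells from NK and CD8 T cells was -4.56 ± 0.41 (adjusted p = 7.52e-06). NK cells were not told apart from CD8α cDCs (1980 and 1999) in Arsb (adjusted p = 0.34).

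Lipa read 101, 94 and 130.3 in B cells, 353 and 329 in NK cells and 450.3 and 382 in CD8 T cells (-1.81 ± 0.18, adjusted p = 1.51e-05). Npc2 read 1437, 1138 and 1434 in B cells, 3373 and 2870 in NK cells and 4490 and 5031 in CD8 T cells (-1.53 ± 0.13, adjusted p = 5.22e-06). Cln3 read 128, 91.5 and 75.9 in B cells, 447 and 525 in NK cells and 165 and 205 in CD8 T cells (-1.64 ± 0.22, adjusted p = 0.00015). On the probe sets used, every B cell array was below every NK and CD8 T cell array for each of these genes. The 2 further, dimmer probe sets of Lipa gave differences of only -0.095 and -0.38, with NK cells or pDCs lowest, and a further one of Cln3 had its lowest mean in pDCs (26.0, against 46.7 in B cells).

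The genes higher in B cells included Pld4 (3.75 ± 0.55, adjusted p = 0.000293), Plbd1 (2.20 ± 0.63, adjusted p = 0.0177) and Fuca1 (1.50 ± 0.14, adjusted p = 9.06e-06). Asah1, Pla2g15, Lamp2, Laptm4a and Atp6v0d1 were higher by 0.57 to 1.11. Pld3 was lower in B cells (-0.84 ± 0.22, adjusted p = 0.0111), as was Npc1 (-0.62 ± 0.15). Within the second scanning period alone, where B and NK cells could be compared, the B minus NK differences of Fuca1 (1.46, adjusted p = 0.00649), Arsb (-6.37, 0.0112), Lipa (-1.67, 0.0088), Npc2 (-1.23, 0.0142), Cln3 (-2.33, 0.00994) and Pld3 (-1.15, 0.00679) were called by limma. Pld4 (3.88, adjusted p = 0.0627) and Plbd1 (2.23, 0.25) were not. Across all arrays the call on Plbd1 was also lost without NK replicate 2 (1.99, adjusted p = 0.0713) or CD8 T replicate 2 (2.13, 0.0589), and that on Pld3 without both NK arrays (-0.54, 0.166).

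B cell replicate 1, the array not labelled follicular, stood apart from replicates 2 and 3. Its correlation with them across genes, which are not independent, was 0.934 and 0.935, whereas replicates 2 and 3 correlated at 0.979. It had the highest signal of the 3 for 28 of the 40 lysosomal genes (70.0%), against 43.4% of all genes, and was at least 2-fold above the geometric mean of the others for 8 (20%), against 7.0% of all genes. These were Plbd1 (8.65-fold), Pld4 (6.13-fold), Arsb (3.97-fold), Gm2a (3.50-fold), Psap (2.67-fold), Acp5 (2.57-fold), Asah1 (2.39-fold) and Arsa (2.00-fold).

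The same array carried more transcripts of other cells. The summed signal of 8 neutrophil markers was 1546, against 116 and 511 on replicates 2 and 3. The sum of 5 plasma cell markers was 9713, against 843 and 1261, with the J chain gene Jchain at 7866, 92.1 and 332. The sum of 15 macrophage and monocyte markers was 448, against 175 on each of the others. Replicate 1 also came from more RNA (100 ng, against 50 ng for each of replicates 2 and 3) and from another chip lot. The part of these transcripts, the RNA amount and the chip lot in the lysosomal values was not tested. Without replicate 1 no call among the genes named with full statistics was lost, but the sizes of some differences of B cells from NK and CD8 T cells moved: Plbd1 to 1.16, Pld4 to 2.87 and Arsb to -5.22. Without replicate 2 that of Pld4 was 4.38.

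**Figure D5:**
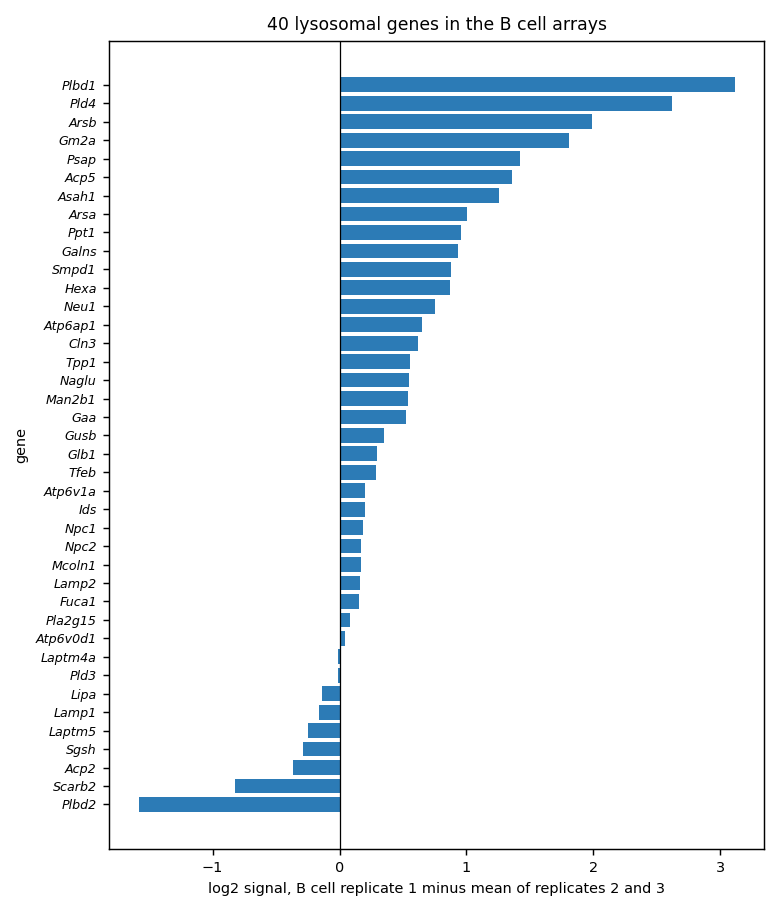
Bars give, for each of the 40 genes tested, the log2 signal of B cell replicate 1 minus the mean log2 signal of replicates 2 and 3, with signals under 20 set to 20. Plbd1 and Pld4 are at the top, at 3.11 and 2.62, and Plbd2 is at the bottom, at -1.58.

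NK cells were last compared with CD8 T cells, scanned in different periods. Of the 40 genes, 10 (25.0%) were higher in NK cells and 2 (5.0%) lower, against 21.5% and 16.6% of all genes. The higher genes were Arsb (3.62 ± 0.54, adjusted p = 0.000501), Npc1 (2.12 ± 0.20, adjusted p = 1.91e-05), Cln3 (1.40 ± 0.28, adjusted p = 0.00325), Man2b1 (1.29 ± 0.23, adjusted p = 0.0013) and Atp6v1a (1.24 ± 0.18, adjusted p = 0.000382). Tfeb (0.98), Lamp1 (0.91), Naglu (0.84), Laptm5 (0.71) and Ids (0.55) were also higher, and Acp5 (-1.45 ± 0.41, adjusted p = 0.0179) and Npc2 (-0.61) lower.

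Laptm5, a transmembrane protein of leukocyte lysosomes, read 7954 and 7333 in NK cells and between 4457 and 5709 on every other array, and NK cells were above each of the other 5 populations, as were 5.78% of all genes. Atp6v1a and Man2b1 were lowest in CD8 T cells by every pairwise test (3.12% of all genes). Atp6v1a read 228 and 225 there and 485 and 590.0 in NK cells, and Man2b1 641 and 778 and 1695 and 1761.

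For Man2b1 a further probe set with a mean of at least 50 gave the opposite sign between NK and CD8 T cells (-1.30), and 2 of 3 further probe sets did so for Laptm5, with CD8 T cells highest. On that further probe set of Man2b1, NK cells (144) and not CD8 T cells (359) were lowest. Over all comparisons 70 of 73 values from further probe sets of called genes had the sign of the probe set used. Leaving out NK replicate 1, NK replicate 2 or CD8 T replicate 2 ended the call on Acp5, and leaving out NK replicate 1 or CD8 T replicate 1 that on Tfeb. When the fit also held the prefix of the sample names (MD or PK) as a factor, 7 genes were higher and 8 lower in NK cells. Man2b1, Cln3 and Tfeb were then no longer called. Both NK arrays carry MD and both CD8 T cell arrays PK. That factor therefore rests on B cell replicate 1 (MD) against replicates 2 and 3 (PK) alone, and replicate 1 stood apart as described above. The fit thus cannot separate the prefix from what sets that array apart. The NK arrays had the highest GAPDH ratios of the series, and the part of RNA length in these differences was not tested.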

How the data were processed

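RNA of 13 samples was measured on Affymetrix Mouse Genome 430 2.0 arrays after 2 rounds of amplification from 100 ng of RNA per the labels. Amounts noted in the scanner headers differed from this for 3 arrays, with 89 ng for pDC replicate 2 and 50 ng for B cell replicates 2 and 3. No amount was noted there for the CD8 T cell arrays. The deposited values are MAS5 signal intensity on a linear scale, which the authors scaled to a trimmed mean of 100 per array; depth has no meaning here, and the number of arrays limits precision. The scanner headers gave scan days and chip lots.

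The platform annotation gave 1 gene for 34958 of the 45101 probe sets, several for 932 and no gene for 9211; gene IDs linked 34754 of the 34958 to current symbols. The probe set with the highest mean stood for each gene. Signals under 20 were set to 20 before log2, and genes needed at least 50 on all arrays of at least 1 population. limma 3.58.1 in R 4.3.3 was fitted to 6 population means (7 residual degrees of freedom), with Benjamini-Hochberg adjustment over 9380 genes, and was tested on simulated data. Comparisons were the F test, 5 orthogonal contrasts and all pairwise tests. Genes given in full were the up to 8 largest called differences per comparison with no overlap of arrays, and of each further list up to 3 called genes per direction. The members, lists and tests were chosen with earlier results of these data known. Alternatives were quantile or invariant-rank normalization, other floors, no filter, the mean over probe sets, a variance trend, blocks for replicate number, scan day and set of sample names, and each array left out. Those added after the data were seen were fits without both NK arrays, without the 3 arrays of contradicted sex, of the DC arrays alone, and of the NK and B cell arrays alone.

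Cell type marker lists were read per array for macrophages and monocytes, neutrophils, erythroid cells, platelets, plasma cells and the sorted populations.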

Additional observations from a re-analysis of the deposited data

How the results depend on the processing

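Where a comparison kept all its populations, the counts of called genes were within 1.5 times those reported under every alternative but 2. These were the fits without CD8α cDC replicate 2 and without CD11b cDC replicate 2, for the 14 genes called between CD8α and CD11b cDCs. In the NK and B cell arrays alone, B cells could be set only against NK cells. There 2 genes were higher and 7 lower in B cells, against 8 and 6 in the full comparison with NK and CD8 T cells. With each array left out in turn, the counts ranged from 28 to 32 for DCs against lymphocytes, 15 to 27 for pDCs against cDCs, 8 to 17 for CD8α against CD11b cDCs, 12 to 17 for B against NK and CD8 T cells, 8 to 15 for NK against CD8 T cells and 33 to 38 for the F test. Between populations, the correlations of the deviations of samples with equal replicate numbers ran from -0.20 to 0.18. By the paper's methods, replicates of each DC subset and of NK cells stem from separate sorts of pooled spleens. It does not say whether populations sorted together shared spleens. The correlations cannot decide whether samples were paired, since replicate numbers need not follow the sorts. With a replicate block the counts were 28, 20, 14, 13, 11 and 35 in the same order, and no call among the genes given in full was lost. Man2b1 between NK and CD8 T cells was -0.0060 with the mean over probe sets, against 1.29. Of the 40 gene differences given in full, 40 kept their call and sign with quantile normalization, the variance trend and scan day as a random block, 39 with invariant-rank normalization, 39 with a floor of 50, 37 with no floor, 36 with no filter and 37 with the prefix of the sample names as a factor. The calls lost were those on Plbd1, Arsb, Pld3, Acp5, Man2b1, Cln3 and Tfeb, outside the comparison of DCs with lymphocytes. In the DC arrays alone all 16 such differences among DC subsets kept their calls. With 2 arrays in 5 of the 6 populations, precision is limited by the number of arrays.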
